A study of Parhyale hawaiensis with 42 samples.

Results

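The comparison concerns the poly-A selected mRNA of whole *Parhyale hawaiensis* embryos at the second cleavage time-point, S5–6, against the first, S1–4. *Parhyale* is an amphipod crustacean used as a model of arthropod development. The members were chosen by the sample labels and are the 4 mRNA libraries of these time-points, 2 of S5–6 and 2 of S1–4, of 42 libraries in the series. S5–6 embryos were in later cleavage and S1–4 embryos in the first cleavages after fertilization. Embryos of both groups came from the wild-type laboratory strain, were staged by eye, were pooled and received no treatment. The sources used here do not give the broods behind the 2 replicates, so p-values measure only the spread between libraries. In the main fits this spread was estimated over all 14 mRNA libraries of the 7 time-points. The labels call the S5–6 libraries stage 6, and the name S5–6 of the paper was used.

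In the first cleavages of an animal embryo the genome is largely silent, and development runs on mRNAs that the mother loaded into the egg. During the maternal-zygotic transition part of this maternal mRNA is removed and the genome of the embryo begins to be transcribed. Maternal mRNAs can also gain or lose poly-A tail in the cytoplasm, and a poly-A selected library counts an mRNA only as far as its tail is captured. A level that differs between S5–6 and S1–4 therefore cannot be assigned to new transcription, to decay or to a change of tail, and in bulk samples fewer cells of a type and less RNA per cell cannot be told apart. The comparison asks which mRNAs differed in level across this step, and which genes kept their level but changed the isoform that carried it.

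The deposited tables list 53604 transcripts of a genome-guided Trinity assembly, each with its length, its TPM and an estimated read count. Transcripts of the assembly are grouped into 31153 Trinity genes, of which 20804 have 1 listed isoform and 10349 have 2 or more. The transcripts carry only assembly identifiers, so changes are described by level, length and course, and at most 2 genes that rose and 2 that fell are named for each test. The S5–6 libraries held 41354642 and 42438379 counts, against 46474054 and 47469064 in the S1–4 libraries. At least 1 read was counted for 25705 and 25661 genes in the S5–6 libraries, and for 26212 and 26213 genes in the S1–4 libraries. The 10 most abundant transcripts took 3.83% and 3.81% of the counts at S5–6, against 4.34% and 4.31% at S1–4. In the labels the S1–4 mRNA libraries carry the molecule entry of total RNA and the S5–6 libraries that of polyA RNA, and this difference in annotation cannot be told apart from the time-point.

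Gene levels were tight between replicates. Gene levels are given as CPM, the count of a gene relative to the TMM-scaled size of its library, which is the scale of the fold changes below. Among genes with at least 10 CPM, the median difference between replicates was 0.06 on the log2 scale at S5–6 (8553 genes) and 0.06 at S1–4 (8987 genes), and 0 and 1 of them differed by 1.5 or more. Between the time-points the median difference was 0.91 on the log2 scale over 9063 genes, and 2292 of them differed by 1.5 or more. Spearman's rho across the 29220 genes tested below was 0.980 between the S5–6 replicates and 0.986 between the S1–4 replicates. It was 0.943 to 0.945 between libraries of the time-points, with genes being no independent replicates. The chi-squared statistic of the replicate counts over its degrees of freedom was 3.58 at S5–6 and 4.27 at S1–4. Because the read counts are estimates, this statistic cannot show whether the 2 replicates of a time-point were separate samples.

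At the gene level many genes differed at S5–6, and rises were most frequent among the abundant ones. Of 29220 genes tested, 1795 (6.14%) rose and 2247 (7.69%) fell at S5–6 relative to S1–4, by the quasi-likelihood test of edgeR called where the log2 fold change was 1.5 or more in size and the Benjamini-Hochberg adjusted p was 0.001 or less. The median log2 fold change was 1.98 among genes that rose, with quartiles of 1.71 and 2.42, and -2.06 among those that fell, with quartiles of -2.51 and -1.76. A log2 change of 3 or more in size was seen in 218 genes that rose and 253 that fell, and of 5 or more in 71 and 56. In each of the 4042 called genes both libraries of one time-point lay above both of the other, which was so for 70.3% of all genes tested. A further 5855 genes passed the adjusted p with a smaller fold change, and 4699 passed the fold change without passing the p, 4131 of which averaged below 1 CPM.

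The balance of rises and falls depended on how the libraries were scaled to each other. Without TMM, on total counts, 833 genes rose and 3858 fell, and with the test and size factors of DESeq2 2673 rose and 1708 fell. The share of called genes that rose was thus 44.4% with TMM, 17.8% with total counts and 61.0% with DESeq2. For genes of 10 CPM or more, total counts moved the log2 fold changes by a median of -0.46 and DESeq2 by 0.23 relative to TMM. The call itself was shared under all 3 scalings for 824 genes that rose and 1685 that fell, and no gene was called in opposite directions. The sign of the change was the same in all 3 for each of the 1795 and 2247 genes. Which direction was the more frequent thus changed with the scaling, while the direction of each called gene did not change among these 3.

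The chance that a gene was called went with its abundance. Both shares grew from range to range up to 100 CPM, and above it the share that rose was higher still and the share that fell was lower. Among genes with a mean of 100 to 1000 CPM over the 4 libraries, 23.6% of 2133 rose and 6.70% fell. Above 1000 CPM, 24 of 105 genes rose (22.9%) and 7 fell (6.67%). In genes of 10 to 100 CPM the order turned, with 9.64% of 6825 risen and 13.9% fallen, and at 1 to 10 CPM 5.13% of 7801 rose and 12.5% fell. Below 1 CPM 1.69% of 12356 genes rose and 1.38% fell, at a depth where few changes could be called. The share that rose was highest above 100 CPM under the other scalings too, at 10.9% and 13.3% of the same 2 groups of genes on total counts and 31.9% and 34.3% with DESeq2. Which direction was the more frequent within a range changed with the scaling. At 100 to 1000 CPM 10.9% of genes rose and 11.6% fell on total counts, and at 10 to 100 CPM 13.5% rose and 10.3% fell with DESeq2.

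**Figure D1:**
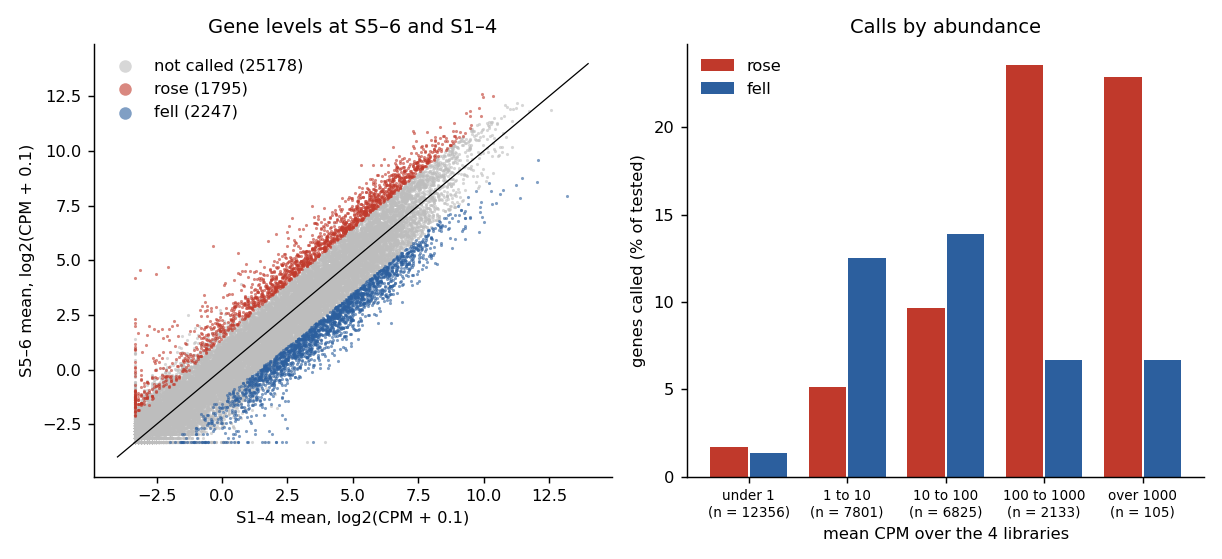
Left, mean level of each tested gene at S5–6 (vertical) and S1–4 (horizontal) as log2(CPM + 0.1), each point a gene, with the line of equal levels. Right, the percentage of tested genes in each range of mean CPM that rose (red) or fell (blue) at S5–6. On this TMM scale genes that rose are most frequent from 100 CPM upwards (23.6% and 22.9%), and genes that fell between 1 and 100 CPM (12.5% and 13.9%); on total counts falls exceed rises at 100 to 1000 CPM, and with DESeq2 rises exceed falls at 10 to 100 CPM.

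Length differed along with abundance. The longest transcript of a gene had a median of 2088 bases in genes that rose, 1427 bases in genes that fell and 970 bases in all genes tested. Among genes of 10 CPM or more whose longest transcript had 5000 bases or more, 16% of 2456 rose and 5.21% fell, whereas at 1000 to 2000 bases 11.4% of 1687 rose and 17.5% fell. Long genes were also the more abundant ones. Above 100 CPM, 28.7% of 1011 genes with 5000 bases or more rose and 2.27% fell, against 19.4% and 10.4% of 1227 shorter genes. In the lower ranges long genes were called less often in both directions. At 10 to 30 CPM 4.50% of 533 long genes rose and 8.63% fell, against 8.92% and 16.4% of 3093 shorter ones. At 30 to 100 CPM 8.55% of 912 rose and 6.47% fell, against 12.2% and 14.7% of 2287. The median log2 fold change of long genes was the higher one in each range. It was -0.08 against -0.15 at 10 to 30 CPM, 0.14 against -0.0014 at 30 to 100 CPM and 0.96 against 0.56 above 100 CPM. The mean transcript length weighted by TPM was 1568 and 1602 bases in the S5–6 libraries, against 1326 and 1362 bases in the S1–4 libraries. Of the genes of 10 CPM or more with 5000 bases or more, 6.96% rose on total counts and 21.7% with DESeq2, against 5.54% and 16.7% of the shorter ones. On total counts 11.1% of these long genes fell, more than rose, and with DESeq2 3.58% fell.

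In their share of the mRNA pool the 2 sets exchanged places. The genes that rose held 30.0% and 30.0% of all counts in the S5–6 libraries, against 10.2% and 10.1% in the S1–4 libraries. The genes that fell held 2.44% and 2.40% at S5–6, against 16.2% and 16.2% at S1–4. The genes that rose on total counts held 16% in each S5–6 library, against 4.23% and 4.21% in the S1–4 libraries, and the genes that rose under DESeq2 held 40.3% and 40.4% at S5–6, against 15.6% in each S1–4 library. The genes that fell on total counts held 4.81% and 4.75% at S5–6, against 24% in each S1–4 library, and the genes that fell under DESeq2 1.75% and 1.72% at S5–6, against 13.3% in each S1–4 library. These sets were chosen on the same libraries, so the shares describe their size in the mRNA pool and test nothing.

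Nearly all genes that rose were already present in the S1–4 embryos. Of the 1795 genes, 1442 (80.3%) had at least 1 CPM at S1–4 and 923 had at least 10 CPM. Only 91 (5.07%) had 3 or fewer counts summed over both S1–4 libraries, and 56 of these had none. These 91 genes reached a median of 0.319 CPM at S5–6, with a range of 0.131 to 23.5 CPM, and their longest transcript had a median of 711 bases. A count of 0 allows up to 3 counts per library at 95% confidence, which corresponds to 0.084 and 0.083 CPM in the S5–6 libraries and 0.054 CPM in each S1–4 library and takes in counting error alone, PCR copies of a molecule not being separate observations. Transcripts first detected at S5–6 thus made up a small and mostly low part of the risen set at this depth. Likewise, of the 2247 genes that fell, 1722 (76.6%) still had at least 1 CPM at S5–6. Only 62 (2.76%) had 3 or fewer counts summed over the S5–6 libraries, and 41 of these had none. A fall was therefore mostly partial.

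The called genes were then followed over the later time-points. The median level of the genes that rose was 11.1 CPM at S1–4 and 45.2 CPM at S5–6. It was 10.05 CPM at S7–11 and 6.13 CPM at S14, and stayed between 4.20 and 4.76 CPM in the 3 time-points that followed. S5–6 was the highest of the 7 time-points for 1369 of them (76.3%). By S7–11 the level of 451 of these genes (25.1%) was below a 10th of that at S5–6, against 16% of the 6779 uncalled genes of 10 CPM or more. The median of the genes that fell was 15.5 CPM at S1–4 and 3.48 CPM at S5–6, and lay between 6.31 and 6.97 CPM in all 5 later time-points. S1–4 was the highest time-point for 1182 of these (52.6%), and 1065 (47.4%) returned to or exceeded their S1–4 level later, against 43% of the uncalled genes of 10 CPM or more. Of these uncalled genes 39.5% were highest at S5–6 and 24.1% at S1–4. Of the 91 genes near or at 0 at S1–4, 81 (89.0%) reached at least their S5–6 level at a later time-point, against 426 (23.7%) of all genes that rose. Their median was 0.319 CPM at S5–6, a low level to exceed, and 1.51 CPM at S7–11. Genes could also pass the count filter through a later time-point alone, and the part of this in their course was not tested. Because a call requires a high or a low value at these 2 time-points, the peak counts of the called sets are descriptions. The same holds for the shares taken relative to the S5–6 or S1–4 level. Their differences from the uncalled genes, which were chosen without such a value, test nothing.

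**Figure D2:**
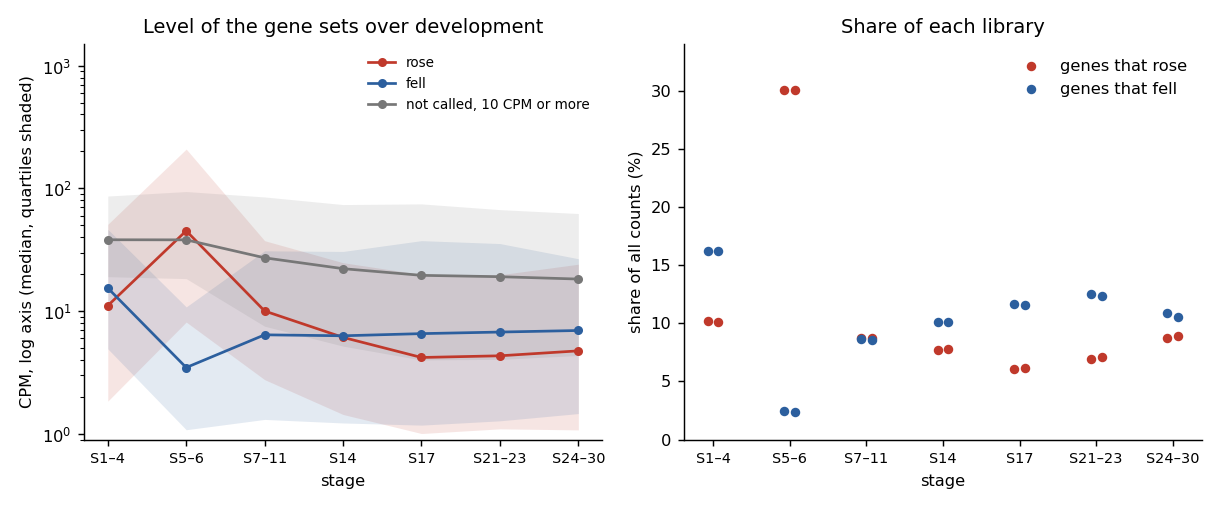
Left, median level in CPM (log axis, quartiles shaded) of genes that rose, genes that fell and uncalled genes of 10 CPM or more at the 7 time-points. Right, the share of all counts that the risen and fallen genes held in each library, 1 point per library. The risen genes held 30.0% of both S5–6 libraries and 6.06% to 10.2% of all others, and the fallen genes 2.40% to 2.44% of the S5–6 libraries.

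The most abundant gene that rose, TRINITY_GG_147263_c0_g1, has a longest transcript of 8946 bases and 2 isoforms. Its level was 6140 and 6251 CPM at S5–6, against 966 and 989 CPM at S1–4. The replicates of a time-point differed by a few percent and the time-points did not overlap. Its log2 fold change was 2.66 ± 0.03 (SE; edgeR quasi-likelihood test, adjusted p = 1.7e-15). Its mean level was 514 CPM at S7–11, 57.9 CPM at S14 and 45.6 to 71.9 CPM in the later time-points, below its levels in cleavage.

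TRINITY_GG_108151_c0_g1, with 562 bases and 2 isoforms, had the largest rise among genes of at least 100 normalized counts. It had 16.6 and 19.4 CPM at S5–6, against 0 counts in both S1–4 libraries. Taking 3 counts per library as the limit of the S1–4 libraries, it was at least 305-fold higher at S5–6 (edgeR quasi-likelihood test, adjusted p = 2.2e-09). Its mean was 16.03 CPM at S7–11 and below 0.05 CPM at each later time-point. It was thus detected at S5–6 and S7–11 and almost nowhere else.

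The most abundant gene that fell was TRINITY_GG_134943_c0_g1, with 1 isoform of 2672 bases. It had 246 and 252 CPM at S5–6, against 9345 and 9422 CPM at S1–4, and a log2 fold change of -5.23 ± 0.14 (SE; edgeR quasi-likelihood test, adjusted p = 2.1e-13). Its mean was 4.46 CPM at S7–11 and 0.0910 to 0.504 CPM from S14 on. A gene that was among the most abundant of the first cleavages was therefore low at S5–6 and near 0 afterwards.

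TRINITY_GG_67530_c0_g2, with 1 isoform of 3614 bases, had the largest fall among genes of at least 100 normalized counts. It had 0 counts in both S5–6 libraries, against 10.9 and 11.3 CPM in the S1–4 libraries. At S5–6 it was at least 130-fold lower than at S1–4, with 3 counts per library as the limit of the S5–6 libraries (edgeR quasi-likelihood test, adjusted p = 8.3e-10). It had 0 counts at S7–11 and S14 and means of 34.1, 41.0 and 54.4 CPM at S17, S21–23 and S24–30. The other gene of its assembly cluster, TRINITY_GG_67530_c0_g1, had 42.1 and 38.8 CPM at S5–6, against 90.5 and 92.9 CPM at S1–4. Summed over both genes of the cluster, the log2 fold change was -1.35 ± 0.05 (SE; edgeR quasi-likelihood test, adjusted p = 4.5e-12), short of the fold threshold, so the fall was called for the gene and not for the cluster. How reads were divided between the 2 genes was not tested.

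Of 44548 transcripts tested, 1420 (3.19%) rose and 1622 (3.64%) fell at S5–6. Of those that rose, 1226 (86.3%) belonged to genes that rose as a whole, 191 (13.5%) to uncalled genes and 3 to genes that fell. Of those that fell, 1423 (87.7%) belonged to genes that fell, 193 (11.9%) to uncalled genes and 6 to genes that rose. Conversely, 648 genes that rose and 890 that fell had no called transcript, and 286 and 367 of these had a single isoform. For these the gene and the transcript have the same counts. Library scaling, spread and the adjustment of p were computed apart at each level, so the call can differ. In 17 genes one transcript rose and another fell, and 11 of these genes were uncalled as a whole. The number of transcripts called changed more with the fit than that of genes. Fitted on the 4 libraries alone, 495 transcripts rose and 283 fell, and 420 and 228 of these were among those called above. For genes the 4-library fit called 1684 risen and 2307 fallen. With DESeq2, 3526 transcripts rose and 2337 fell, against 2673 and 1708 genes, so transcripts gave fewer calls than genes in the edgeR fits at an adjusted p of 0.001 and more with DESeq2.

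The difference in stability between the levels was visible in the replicates. Among features with at least 100 counts, 0.0976% of genes differed by 1.5 or more on the log2 scale between the S5–6 replicates, and 0.0417% between the S1–4 replicates. For transcripts of single-isoform genes the shares were 0.137% at S5–6 and 0.0819% at S1–4. For transcripts of genes with several isoforms they were 9.14% of 12559 at S5–6 and 6.29% of 12699 at S1–4. Where isoforms share sequence, salmon divides reads among them by estimation, and transcripts whose count was over 0.001 from a whole number held 70.0% and 69.8% of the counts at S5–6, against 68.1% and 67.6% at S1–4. The part that this division had in the replicate differences was not tested.

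**Figure D3:**
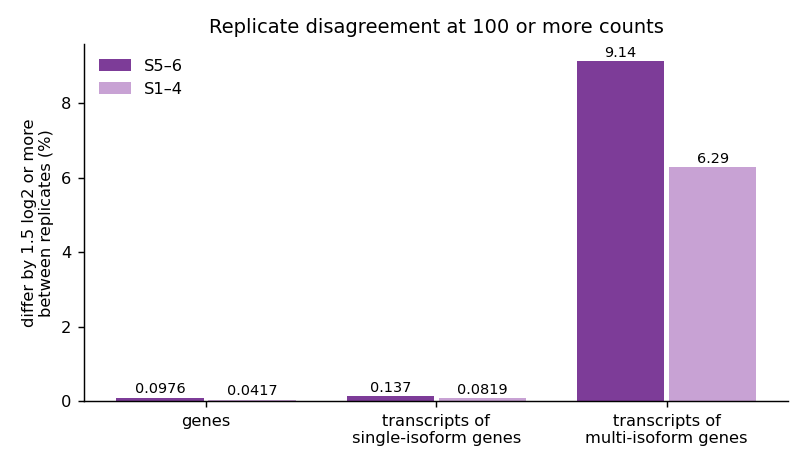
Percentage of genes, of transcripts of single-isoform genes and of transcripts of multi-isoform genes that differed by 1.5 or more on the log2 scale between the 2 replicates of S5–6 (dark) or S1–4 (light). Transcripts of multi-isoform genes reach 9.14% and 6.29%, and the other bars stay at or below 0.137%.

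Most of the change of a transcript was that of its gene. A log2 change of a transcript is the sum of the change of its gene and of its share in the gene's counts, and the parts were compared over 5850 transcripts of 2511 genes with at least 100 counts in each of the 4 libraries. The median size was 0.87 for the transcript, 0.79 for the gene and 0.27 for the share. The share component was the smaller one for 4351 transcripts (74.4%). Between replicates the share of a transcript moved by a median of 0.15 at S5–6 and 0.14 at S1–4. The requirement on counts leaves out isoforms that are absent at one time-point, so it understates the largest shifts. In genes called as a whole with 2 or more transcripts tested, every tested transcript was higher at S5–6 in 476 of 714 genes that rose (66.7%). No tested transcript was higher at S5–6 in 622 of 826 genes that fell (75.3%). A transcript with no change counts against the first share and not against the second, so the 2 shares are not comparable.

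Isoform usage was then tested on its own, as unequal changes of the isoforms of a gene. The gene-level F-test of diffSpliceDGE in edgeR was run on 6789 genes with 2 or more isoforms of at least 10 normalized counts (18295 transcripts). A usage change was called at an adjusted p of at most 0.001 together with a shift of at least 20 percentage points in an isoform's share of the gene's TPM, a measure per length. Here and below this TPM share was taken over the tested isoforms of a gene only, and the leading isoform was chosen among them. A usage change was called in 245 genes (3.61%). Of these, 193 were uncalled at the gene level (2.84% of the genes tested), 16 rose and 36 fell as a whole. A missed gene-level threshold does not show an equal level. A gene log2 fold change below 0.5 in size, the narrower sense of an isoform change without a gene change, was seen in 73 of the 193. This limit depends on the scaling, since 66 of the 193 were below it on total counts, 67 with DESeq2 and 18 under all 3 scalings. A usage call was made in 16 of 637 genes that rose (2.51%), in 36 of 752 that fell (4.79%) and in 193 of 5400 uncalled genes (3.57%). Of the 1389 called genes that could be tested for usage, 1337 (96.3%) were called at the gene level without a usage call.

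**Figure D4:**
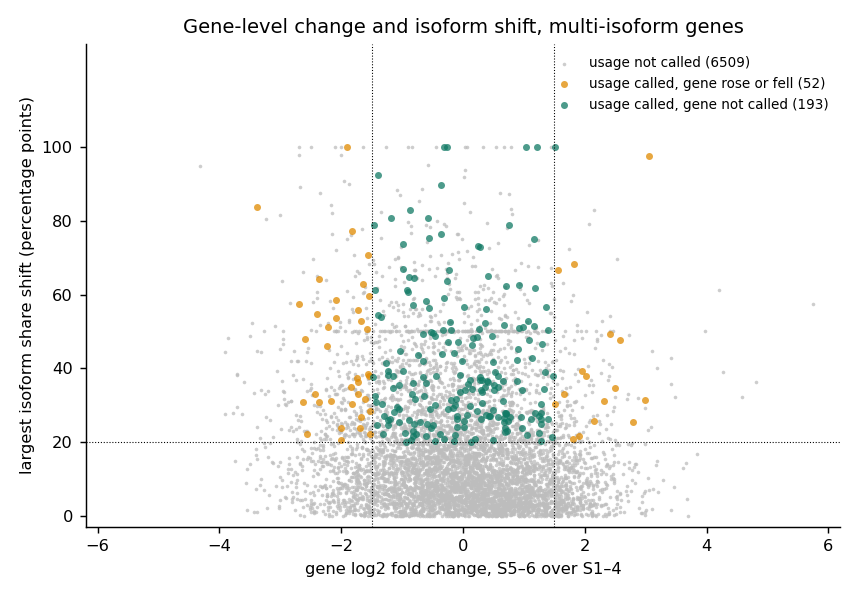
Log2 fold change of the gene at S5–6 over S1–4 (horizontal) against the largest shift in TPM share of one of its isoforms in percentage points (vertical), each point a gene tested for isoform usage. Dotted lines mark the thresholds of 1.5 and 20. The 193 genes with a usage call alone lie between the vertical lines or were short of the adjusted p, and many uncalled genes shift as far as the called ones.

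The size of a shift was by itself a poor guide, because replicates shifted as well. A shift of 20 points or more between the time-points was found in 2332 genes (34.3%), but a shift of that size between the 2 replicates was found in 1874 genes (27.6%) at S5–6 and 1339 (19.7%) at S1–4. In the 245 called genes the largest shift had a median of 36.0 points, and 68 genes shifted by 50 points or more. Their shift between replicates had a median of 3.26 points at S5–6 and 4.53 points at S1–4. In 232 of the 245 the shift between the time-points exceeded the sum of both replicate shifts, while 100 had a replicate shift of 10 points or more at one time-point. The called genes were chosen on these same libraries, so these values describe them and test nothing. The calls were made mostly at intermediate and high levels, in 1.98% of 2575 genes below 10 CPM, 4.57% of 3082 genes of 10 to 100 CPM and 4.68% of 1090 genes of 100 to 1000 CPM.

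The number of usage calls also depended on the tool. The F-test of diffSplice in limma called 646 genes under the same thresholds, 505 of them uncalled at the gene level, and 216 of the 245 were among its calls. Fitted on the 4 libraries alone diffSpliceDGE called 220 genes, of which 110 were among the 245. After isoforms that differed by up to 10 bases in length were merged, 269 genes were called, and 229 of the 245 were among them.

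The leading isoform, the one with the highest TPM, swapped in 81 genes with a usage call (1.19% of the genes tested). It was the same in both libraries of S5–6 and in both of S1–4, and differed between them. Of the 81, 63 were uncalled at the gene level. Without the usage call 644 genes met the same condition, and the leading isoform differed between the replicates themselves in 1438 genes (21.2%) at S5–6 and 1159 (17.1%) at S1–4. At S7–11 the isoform that led at S5–6 was still the leading one in 45 of the 81 genes, and the isoform of S1–4 led again in 31. At S24–30 the numbers were 41 and 29. With a single S5–6 library left, which is then assumed to vary like the other groups, 156 swaps were called without S5–6 replicate 1 and 157 without S5–6 replicate 2. An isoform below 5% of the gene at S1–4 held at least 50% at S5–6 in 20 genes with a usage call. The reverse, an isoform of at least 50% at S1–4 that was below 5% at S5–6, was seen in 41.

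In genes with a usage call the isoform that gained most was more often the longer one. It was longer than the isoform that lost most by over 10 bases in 147 of 245 genes (60.0%), shorter in 86 (35.1%) and within 10 bases in 12 (4.90%), with a median difference of 254 bases. In the 6509 genes without a usage call it was longer in 48.9% and shorter in 41.4%, with a median difference of 3 bases. Among the 81 swaps it was longer in 51 (63.0%) and shorter in 28, with a median difference of 457 bases. The difference was 1000 bases or more in 123 of the 245 genes. No test of this difference was run. The same direction was seen in the mean transcript length of the libraries given above.

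TRINITY_GG_94594_c0_g1 is one of the 2 genes named for an isoform change. Its gene-level log2 fold change was -0.23 ± 0.05 (SE; edgeR quasi-likelihood test, adjusted p = 0.000545), short of the fold threshold, and was -0.69 on total counts and 0.00 with DESeq2. Its isoform i13, of 8231 bases, held 91.3% and 97.0% of the gene's TPM at S5–6, against 34.2% and 31.9% at S1–4. Isoform i7, of 7675 bases, had 0 counts in both S5–6 libraries, against 65.9% and 67.7% at S1–4. The third tested isoform, i9, of 4680 bases, held 8.73% and 2.98% at S5–6, against 0% and 0.379% at S1–4. The shares of i13 and i7 did not overlap between the time-points, and the usage change had an adjusted p of 0.00021 (diffSpliceDGE in edgeR). On its own the fall of i7 had an adjusted p of 0.0024 in the edgeR test of transcripts, so that the change was called for the gene's usage and not for the transcript. The usage call was kept in the fit of the 4 libraries (adjusted p = 0.00072) and lost without S5–6 replicate 1 (0.0072) or S5–6 replicate 2 (0.0040).

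TRINITY_GG_110822_c3_g1 had the largest shift that met the naming rule, but between isoforms that are nearly of one length. Isoform i6, of 14032 bases, held 79.4% and 100% of the gene's TPM at S5–6, against 0% and 0% at S1–4, and isoform i7, of 14019 bases, held 20.6% and 0% at S5–6, against 100% and 100% at S1–4. The gene itself had 20.2 and 21.9 CPM at S5–6, against 26.6 and 27.6 CPM at S1–4, a log2 fold change of -0.36 ± 0.08 (SE), which was -0.82 on total counts and -0.13 with DESeq2. The usage change had an adjusted p of 0.00022 (diffSpliceDGE in edgeR), which became 0.085 in the fit of the 4 libraries, 0.0047 without S1–4 replicate 1 and 0.0048 without S1–4 replicate 2. How the sequences of these isoforms differ was not examined here. Reads that fit both isoforms are divided by the estimate of salmon, and a share of 0% or 100% at this depth does not show that the other isoform was absent.

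**Figure D5:**
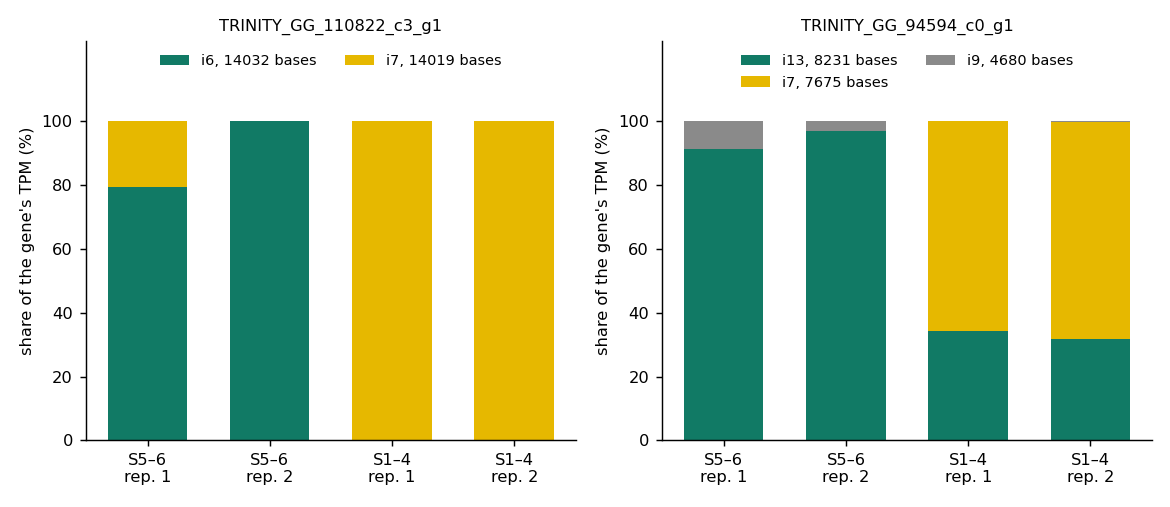
Share of the summed TPM of a gene's tested isoforms (percent) that each of them held, for the 2 named genes. The S5–6 libraries are the left pair of bars and the S1–4 libraries the right pair, 1 bar per library. In TRINITY_GG_94594_c0_g1 isoform i13 holds 91.3% and 97.0% at S5–6 and 34.2% and 31.9% at S1–4, and in TRINITY_GG_110822_c3_g1 isoform i6 holds 79.4% and 100% at S5–6 and 0% at S1–4.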

How the data were processed

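The 14 mRNA libraries of the series, 2 at each of 7 time-points, were used, and 28 small RNA libraries were left out. According to the methods and the submitters' processing notes, the authors trimmed reads with cutadapt (version 1.18), aligned them to the genome by STAR (version 2.7.2b), built transcripts in Trinity and quantified these with salmon (version 0.14.1). The deposited values are expected counts, which the authors did not normalize, and TPM as salmon wrote it. The effective length in every library is the transcript length less 250 bases, so fragment length was not estimated from the data. Assembly, filtering and the division of shared reads among isoforms precede the deposited values and were not varied here.

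Expected counts were summed per Trinity gene and rounded. Features with a mean of at least 10 counts, normalized by size factors of DESeq2 (version 1.42.0), at 1 or more time-points were tested in R (version 4.3.3) with edgeR (version 4.0.16), TMM scaling and a model of 7 groups with 7 residual degrees of freedom. Usage was tested with diffSpliceDGE, and limma (version 3.58.1) was the alternative. The scripts were tested on simulated counts with known changes. Total counts per library were 41354642 to 64892281. Named genes were, in each direction, the most abundant called gene and the one with the largest fold change of at least 100 normalized counts, and, among genes with a usage call alone, a gene log2 fold change below 0.5 and a stable leading isoform, the 2 largest shifts of at least 500 normalized counts. The deposited tables and the paper do not pair the identifiers with gene names, so no gene list was tested and no sequence is printed. Fits with other scalings, filters, thresholds, libraries and replicate blocks were run. The members, thresholds and rules were chosen with earlier results of these data known.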

Additional observations from a re-analysis of the deposited data

How the results depend on the processing

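The directions of the 4 named genes were the same under each alternative run, and so were their calls, except that of TRINITY_GG_67530_c0_g2, whose read cluster as a whole had a log2 fold change of -1.35. On total counts 833 genes and 703 transcripts rose, and 3858 genes and 2726 transcripts fell. With DESeq2 3526 transcripts rose. The fit of the 4 libraries alone gave 495 risen and 283 fallen transcripts, and an adjusted p of 0.05 gave 2861 and 3109. With limma 646 genes had a usage change, 505 of them uncalled at the gene level, and 229 swaps were called. The cause of these differences was not tested, except that fewer libraries leave 2 residual degrees of freedom in place of 7. When 1 replicate was left out, the lone library was assumed to vary like the other groups. Then 1659 to 1709 genes rose and 1890 to 2041 fell, and 1151 to 1244 transcripts rose and 1318 to 1525 fell. In these fits 284 to 371 genes had a usage change (371 without S5–6 replicate 2), 224 to 285 of them uncalled at the gene level. The number of swaps called was 115 to 157. A single library cannot disagree with its replicate on the leading isoform. The usage calls that a swap requires were also more frequent in these fits than in the main fit. The part of each in the number of swaps was not tested. Of the genes called, 1414 that rose and 1633 that fell were called in each of these 4 fits too. Counts summed per read cluster of the assembly, an alternative chosen after seeing the data, gave 1574 risen and 1884 fallen clusters of 24552.

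Replicate numbers did not pair the samples of S5–6 and S1–4. The correlation of deviations from the group means was 0.06 between S5–6 and S1–4. It was over 0.1 in 2 of 21 pairs of time-points, with a highest value of 0.48. With the replicate number as a block 1757 genes rose and 2200 fell, of which 1746 and 2190 were called without it, and 310 genes had a usage change. TRINITY_GG_94594_c0_g1 then had an adjusted p of 0.0012 for usage, above the threshold of 0.001.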

Other observations

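Trinity genes are grouped by the assembly into read clusters. The tested genes fell into 24514 clusters, of which 1704 held a gene that rose at S5–6, 2126 a gene that fell and 16 both. Genes in clusters with several genes made up 28.2% of the called genes and 29.8% of all genes tested.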
